A study of Cricetulus griseus with 9 samples.

Results

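Klf6, Klf4, Klf5, Klf10 and Sp1 are transcription factors of the Krüppel-like (KLF) and specificity protein (SP) family. They were followed here in CHO-K1 cells, a line from Chinese hamster ovary, given more or less of the microRNA miR-29. A list of 6 mouse Ensembl identifiers, paired with names when the list was drawn up, defined the set. Values for 5 of them were analysed, out of 15557 genes in the table. The identifier of Klf2 was not among those genes, so Klf2 was not analysed here. The set was selected on measured FPKM of these libraries together with family membership around Klf6. Which comparison was used is not recorded, so the difference of each gene from anti-miR-29a is given below as a description, without its p-value. Counts of genes called against anti-miR-29a are set beside the share of all tested genes. P-values are given between the pre-miRs, although selection on that comparison is not excluded.

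There were 3 groups of 3 libraries each. Cells of the first group received pre-miR-29b-1 and cells of the second pre-miR-29a, synthetic precursors that raise the microRNA they are named for. Cells of the third received anti-miR-29a, an inhibitor that the submitters state acts on miR-29a and miR-29b-1 together. All groups were grown in medium with charcoal-stripped serum, transfected with the same lipid reagent and collected after 48 h. The labels mention cultures in triplicate without tying them to the replicate numbers, so the spread between replicates may be technical. Cells without a small RNA, or with a control RNA, were not analysed here, so a difference between a pre-miR and anti-miR-29a cannot be assigned to one of them. The series text leaves unclear whether each molecule had its own transfection experiment. If it did, molecule and experiment cannot be told apart. If each experiment instead held all molecules, libraries with the same replicate number may be paired.

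KLF and SP proteins carry a cluster of zinc fingers near their carboxyl end. With these they bind GC-rich and CACCC sequences in promoters, where members can compete for the same sites. Sp1 is made in most cells and activates many housekeeping promoters, and it also activates collagen promoters. The KLF members are better known for short-lived transcripts that respond to serum, injury and growth factors. Reports from human cells, given as background only, describe KLF4 as a target of miR-29 in breast cancer cells and SP1 as a target of miR-29b in leukaemia cells.

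Levels are in FPKM, fragments per kilobase of gene model scaled to library size, so that genes of different length can be set side by side. The models hold coding exons only, and reads from untranslated regions were not counted. On the hamster assembly CriGri_1.0, Klf6 (ENSMUSG00000000078) lies on scaffold JH000001 from 5598186 to 5603768, plus strand, with 4 exons and 954 coding bases. Klf4 (ENSMUSG00000003032) lies on JH001693 from 44731 to 47953, plus strand, with 4 exons and 1449 coding bases. Klf5 (ENSMUSG00000005148) lies on JH000156 from 513608 to 525367, plus strand, with 3 exons and 1113 coding bases. Klf10 (ENSMUSG00000037465) lies on JH001197 from 492410 to 494292, plus strand, with 3 exons and 1374 coding bases. Sp1 (ENSMUSG00000001280) lies on JH000760 from 620492 to 639536, minus strand, with 5 exons and 2358 coding bases. Each gene had 1 model that shared no bases with another gene, and no pair of them lay on the same scaffold. In all 5 genes most of the coding bases sat in a single long exon, which held from 574 bases in Klf6 to 1510 bases in Sp1.

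**Figure D1:**
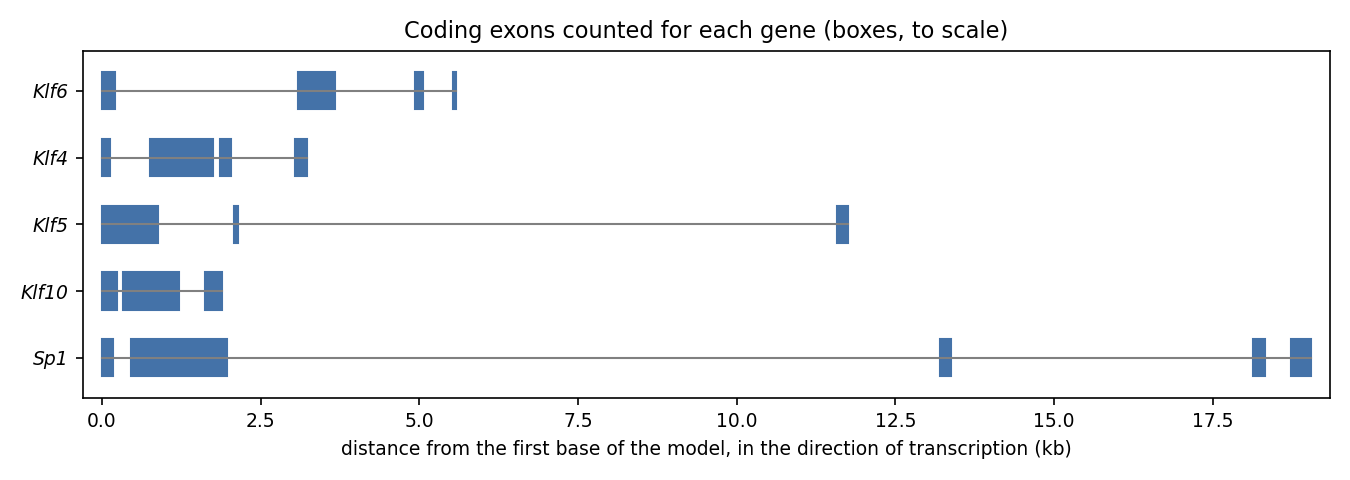
Coding exons (boxes) of the models counted for each gene, drawn to scale against the distance from the first base of the model in kilobases; grey lines are introns. The Klf10 model is the most compact, spanning 1883 bases, and the Sp1 model spans 19045 bases.

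Depth, read from the steps of 1 read in the values of long genes, was equivalent to 15190000 to 20790000 reads per library. At this depth Klf4 rested on the fewest reads, 166 to 459 per library, and Klf6 on 948 to 1572. Klf10 rested on 384 to 1326 implied reads per library, Sp1 on 424 to 726 and Klf5 on 601 to 833. Counting error alone would give a coefficient of variation of 6.98% to 7.59% for Klf4 in the pre-miR groups and of 2.68% to 3.09% for Klf6 across the 3 groups. All 5 genes passed the filter for testing, which asked for a mean of 1 FPKM or more and left 9504 genes. By mean level Klf6 stood above 68.0% of those genes, Klf5 above 48.9%, Klf10 above 46.0%, Sp1 above 23.7% and Klf4 above 17.1%.

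Klf6 had the highest level of the set in every library. It is an injury-response factor that in rat hepatic stellate cells activates promoters of collagen and of TGF-beta signalling genes. With pre-miR-29b-1 it stood at 64.3, 64.8 and 58.2 FPKM and with pre-miR-29a at 66.9, 56.7 and 59.9 FPKM, against 95.7, 88.1 and 80.7 FPKM with anti-miR-29a. All 6 pre-miR libraries lay below all 3 anti-miR-29a libraries, while the pre-miR groups overlapped each other. The means were 62.4 ± 3.66 FPKM with pre-miR-29b-1, 61.1 ± 5.20 FPKM with pre-miR-29a and 88.2 ± 7.52 FPKM with anti-miR-29a (SD, n = 3 each). On the scale of log2(FPKM + 1), the difference from anti-miR-29a was -0.49 (SE 0.080) for pre-miR-29b-1 and -0.52 (SE 0.080) for pre-miR-29a. In RNA from bulk cultures, fewer cells with a transcript and less of it per cell cannot be told apart. In FPKM, the pre-miR-29b-1 mean was 0.708 times and the pre-miR-29a mean 0.694 times the anti-miR-29a mean. Of all tested genes, 13.9% had a lower difference than Klf6 for pre-miR-29b-1 and 14.8% for pre-miR-29a, so the size of the Klf6 difference was moderate in these libraries.

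Klf10, also called TIEG1, is a transcript induced early by TGF-beta whose protein represses the inhibitory Smad7 gene. It stood at 46.4, 41.8 and 39.7 FPKM with pre-miR-29b-1 and at 39.3, 35.0 and 35.5 FPKM with pre-miR-29a, against 24.8, 18.4 and 20.6 FPKM with anti-miR-29a. It was thus opposite in direction to Klf6, and each of the 6 pre-miR values exceeded each of the 3 anti-miR-29a values. Its means were 42.6 ± 3.44 FPKM with pre-miR-29b-1, 36.6 ± 2.33 FPKM with pre-miR-29a and 21.3 ± 3.24 FPKM with anti-miR-29a (SD, n = 3 each). The log2 difference from anti-miR-29a was 0.98 (SE 0.102) with pre-miR-29b-1, where the ratio of the means was 2.00. With pre-miR-29a the log2 difference was 0.76 (SE 0.102) and the ratio of the means 1.72. Only 1.20% of tested genes had a higher log2 difference than Klf10 for pre-miR-29b-1, and 2.80% for pre-miR-29a.

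Klf4, a factor linked to growth arrest and differentiation and used in reprogramming to pluripotency, had the largest relative range of the set, at 2.92-fold between its lowest and highest library. It stood at 7.22, 7.36 and 6.98 FPKM with pre-miR-29b-1 and at 6.31, 6.78 and 6.89 FPKM with pre-miR-29a, against 18.4, 14.5 and 14.4 FPKM with anti-miR-29a. The pre-miR libraries all lay well below the anti-miR-29a libraries, of which replicate 1 stood above the other two. The means were 7.19 ± 0.19 FPKM with pre-miR-29b-1, 6.66 ± 0.31 FPKM with pre-miR-29a and 15.8 ± 2.28 FPKM with anti-miR-29a (SD, n = 3 each). The log2 difference from anti-miR-29a was -1.03 (SE 0.094) for pre-miR-29b-1 and -1.12 (SE 0.094) for pre-miR-29a. Without anti-miR-29a replicate 1 these differences were -0.92 and -1.01. The pseudocount of 1 reduces the difference of a gene at this level, and with 0.1 in its place the differences were -1.11 and -1.22. Of all tested genes, 3.30% had a lower difference than Klf4 for pre-miR-29b-1 and 3.39% for pre-miR-29a.

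Klf5, a factor tied to proliferation that often acts against Klf4, was at a similar level in the 3 groups. It stood at 36.0, 38.4 and 34.7 FPKM with pre-miR-29b-1 and at 38.3, 33.6 and 40.4 FPKM with pre-miR-29a, against 38.7, 35.5 and 35.2 FPKM with anti-miR-29a. The groups overlapped, and the whole range over 9 libraries was 1.20-fold. The means were 36.4 ± 1.87 FPKM with pre-miR-29b-1, 37.5 ± 3.50 FPKM with pre-miR-29a and 36.5 ± 1.92 FPKM with anti-miR-29a (SD, n = 3 each). Its log2 difference from anti-miR-29a was -0.0032 (SE 0.075) for pre-miR-29b-1 and 0.035 (SE 0.075) for pre-miR-29a.

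Sp1 was higher with the pre-miRs by a small step that exceeded the spread between libraries. It stood at 14.6, 14.1 and 15.5 FPKM with pre-miR-29b-1 and at 15.9, 14.7 and 16.0 FPKM with pre-miR-29a, against 12.1, 11.8 and 12.4 FPKM with anti-miR-29a. No pre-miR library reached down to the anti-miR-29a range. The means were 14.7 ± 0.69 FPKM with pre-miR-29b-1, 15.6 ± 0.72 FPKM with pre-miR-29a and 12.1 ± 0.30 FPKM with anti-miR-29a (SD, n = 3 each), and the ratio to anti-miR-29a was 1.22 for pre-miR-29b-1 and reached 1.29 for pre-miR-29a. The log2 difference from anti-miR-29a was 0.26 (SE 0.062) for pre-miR-29b-1 and 0.34 (SE 0.062) for pre-miR-29a. Sp1 also had the smallest spread between replicates, with a within-group SD of 0.055 on the log2 scale against a median of 0.093 over all tested genes, and its difference was exceeded by 21.5% of tested genes for pre-miR-29b-1 and 16.5% for pre-miR-29a.

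**Figure D2:**
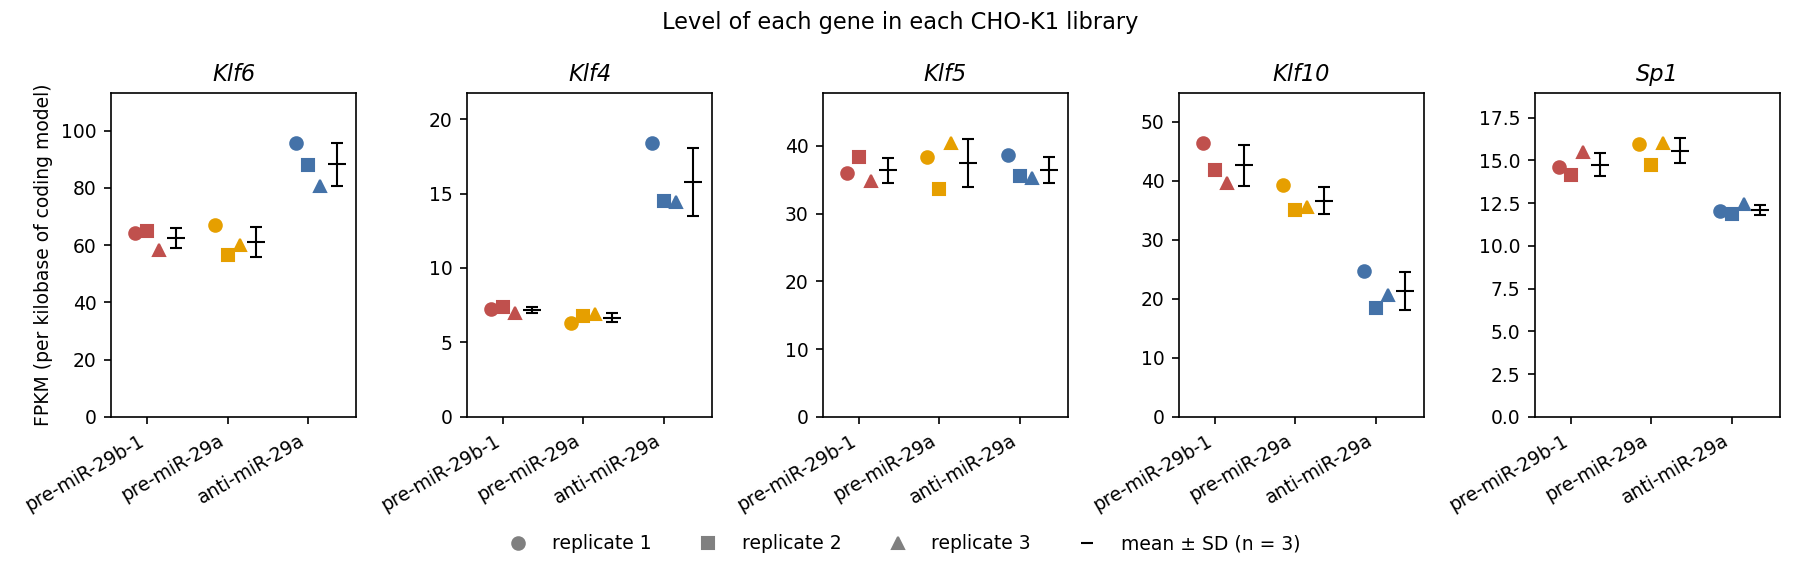
FPKM of each gene (vertical axes, each starting at 0) in every library of the pre-miR-29b-1, pre-miR-29a and anti-miR-29a groups, with marker shape giving the replicate number and black bars the mean ± SD (n = 3). Klf6 and Klf4 sit lower in all pre-miR libraries than in the anti-miR-29a libraries, Klf10 and Sp1 sit higher, and Klf5 overlaps across the groups.

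The fit over all tested genes called 4 of the 5 genes at an adjusted p under 0.05 in each comparison with anti-miR-29a, 2 lower and 2 higher (limma, Benjamini-Hochberg). The background was high, since the same rule called 55.2% of tested genes for pre-miR-29b-1, with 29.4% lower and 25.8% higher. For pre-miR-29a it called 58.4%, with 30.9% lower and 27.5% higher. After quantile normalization the balance over all tested genes turned, to 2474 lower and 3170 higher genes for pre-miR-29b-1 and to 2494 lower and 3340 higher for pre-miR-29a, while the members stayed at 2 lower and 2 higher. Libraries of the groups compared did not overlap for 4 of the 5 genes, where this held for 67.6% of tested genes for pre-miR-29b-1 and 62.2% for pre-miR-29a. Because the genes were chosen with these values in view, nothing is read from these counts. The median log2 difference of the 5 genes was -0.0032 for pre-miR-29b-1 and 0.035 for pre-miR-29a, and over all tested genes it was -0.0057 and -0.016. The members did not share a direction. Their median absolute log2 difference was 0.49 for pre-miR-29b-1 and 0.52 for pre-miR-29a, against 0.24 and 0.26 over all tested genes. With 5 genes, these absolute medians are the values of Klf6 itself. The selection bears on the medians as on the counts, so nothing is read from them either. The anti-miR-29a libraries are shared by both comparisons, so their likeness is not separate evidence.

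**Figure D3:**
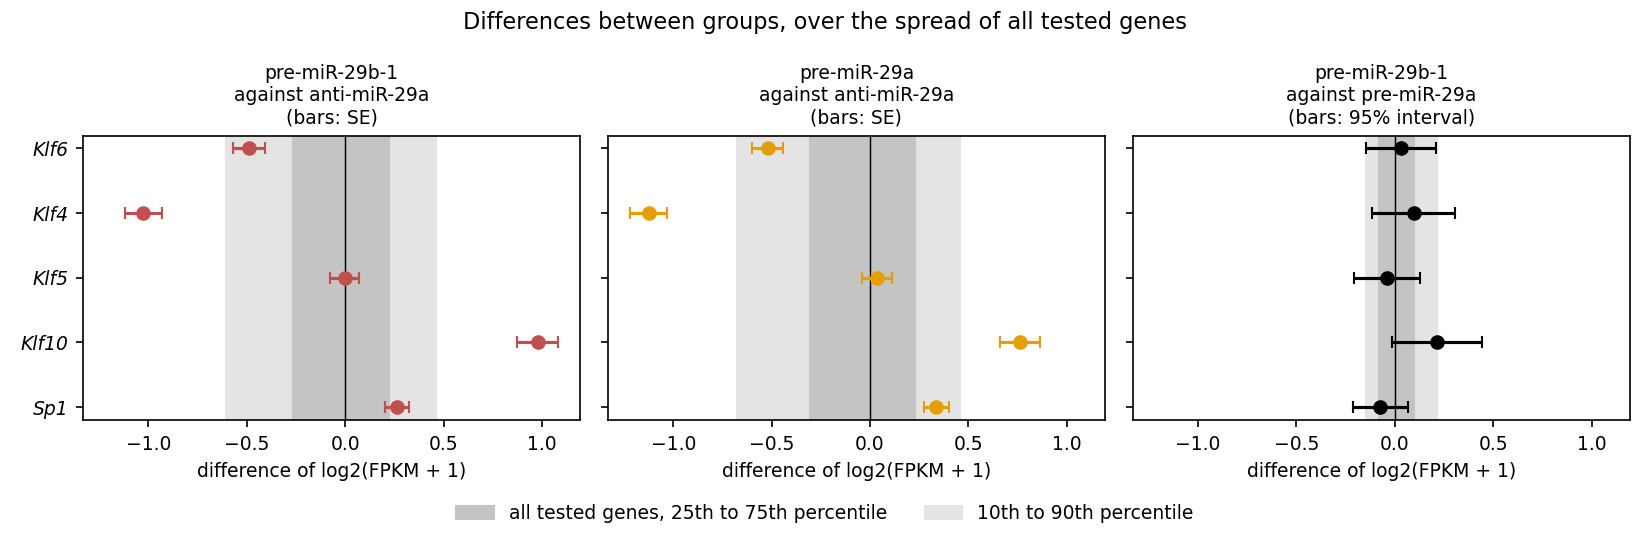
Difference of log2(FPKM + 1) for each gene in the comparisons of either pre-miR with anti-miR-29a (points with SE) and of the pre-miRs with each other (points with 95% interval), over grey bands for the middle of all 9504 tested genes. Against anti-miR-29a, Klf4 lies below and Klf10 above the 10th to 90th percentile band. Between the pre-miRs every interval includes 0 in this fit, which has no term for replicate number.

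Since Klf6 and Klf4 were lower and Klf10 and Sp1 higher, the order of the genes changed with the molecule given. With pre-miR-29b-1 it ran, by mean FPKM, Klf6, Klf10, Klf5, Sp1 and Klf4, and no neighbours overlapped. With pre-miR-29a, Klf6 again came first and Sp1 and Klf4 last, and Klf5 (37.5 FPKM) and Klf10 (36.6 FPKM) overlapped, with Klf5 the higher in 1 of 3 libraries. With anti-miR-29a it ran Klf6, Klf5, Klf10, Klf4 and Sp1. There Klf10 and Klf4 overlapped in range, although Klf10 was the higher in each of the 3 libraries, and the other neighbours did not overlap.

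Ratios of 2 genes within the same library do not depend on the factor by which that library was scaled. The level of Klf10 was 0.644 to 0.722 of that of Klf6 with pre-miR-29b-1 and 0.587 to 0.618 with pre-miR-29a, against 0.209 to 0.259 with anti-miR-29a. Klf4, relative to Klf6, stood at 0.112 to 0.120 with pre-miR-29b-1 and 0.094 to 0.120 with pre-miR-29a, against 0.165 to 0.192 with anti-miR-29a. The relative difference between the pre-miR and anti-miR-29a libraries was therefore larger for Klf4 than for Klf6, and the ratio did not overlap between them.

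The place of Klf4 relative to Sp1 turned over, with a ratio of 0.450 to 0.520 with pre-miR-29b-1 and 0.396 to 0.460 with pre-miR-29a, against 1.16 to 1.53 with anti-miR-29a. Klf10 stood at 1.09 to 1.29 times Klf5 with pre-miR-29b-1 and 0.878 to 1.04 times with pre-miR-29a, against 0.518 to 0.641 times with anti-miR-29a. The widest gap was that of Klf10 to Klf4, at 5.67 to 6.43 with pre-miR-29b-1 and 5.15 to 6.23 with pre-miR-29a, against 1.27 to 1.43 with anti-miR-29a. It joins the members with the highest and the lowest difference, so its size follows from those differences. The summed FPKM of the 5 genes was 155.1 to 168.5 with pre-miR-29b-1 and reached 146.8 to 166.7 with pre-miR-29a, against 163.3 to 189.6 with anti-miR-29a, so that the group ranges of this sum overlapped.

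**Figure D4:**
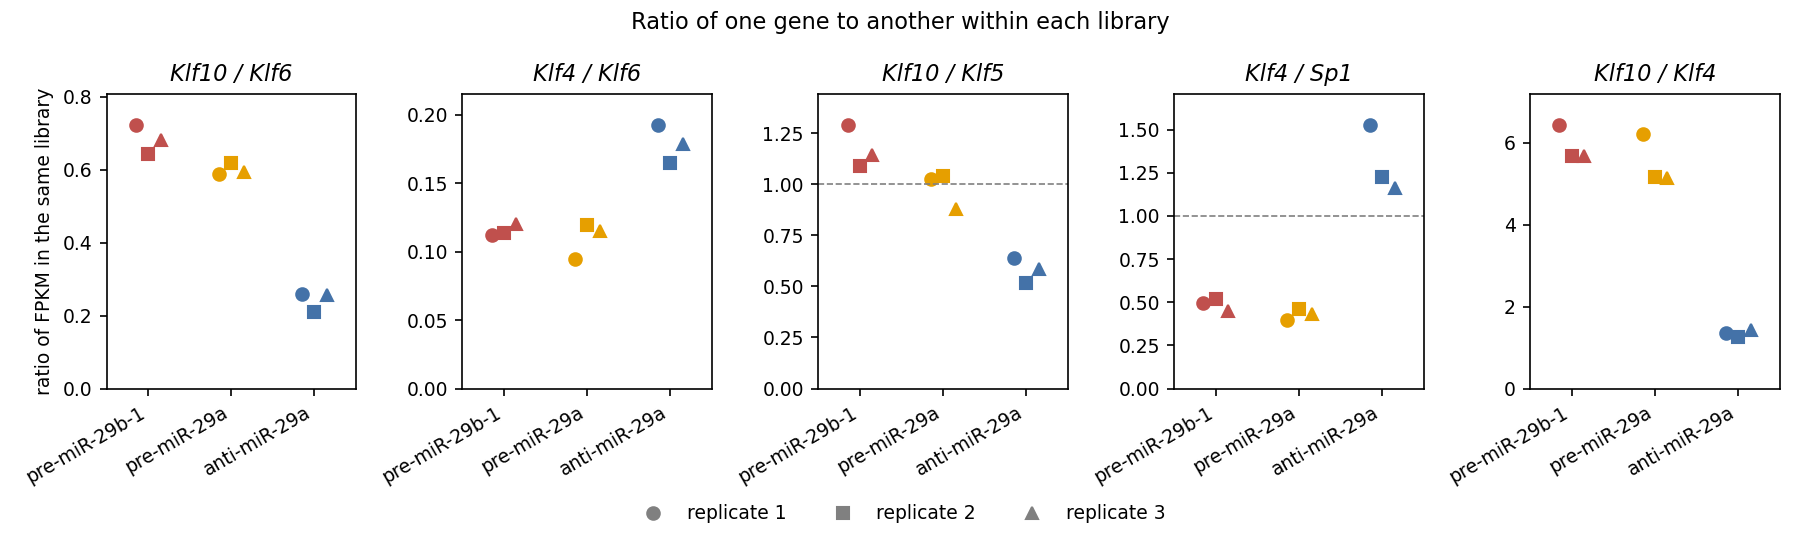
Ratio of the FPKM of one gene to that of another in the same library (vertical axes, each starting at 0; dashed line at 1) for the 3 groups, with marker shape giving the replicate number. Klf4 is below Sp1 in every pre-miR library and above it in every anti-miR-29a library, and Klf10 is 0.518 to 0.641 times Klf5 with anti-miR-29a.

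Setting pre-miR-29b-1 beside pre-miR-29a asks whether the related microRNAs had different effects on these genes. None of the 5 passed an adjusted p of 0.05 in the fit over all genes, where 0.0105% of tested genes did, and none had an unadjusted p under 0.05 (limma). That background is 1 gene, and it depends on 1 library and on the model: without pre-miR-29a replicate 1 it was 1378 of 9500 genes, 630 higher and 748 lower, and with a term for replicate number it was 184 genes, 168 higher and 16 lower. None of the 5 genes was called under either setting. The nearest was Klf10, higher with pre-miR-29b-1 by 0.21 on the log2 scale (95% interval -0.015 to 0.44, adjusted p 0.326, limma with Benjamini-Hochberg), with 3 of 3 libraries above all pre-miR-29a libraries. On the scale of FPKM + 1 that interval runs from 0.990-fold to 1.36-fold. With estimated library weights the adjusted p for Klf10 was 0.0286 (limma), under a setting that called 3627 of all 9504 tested genes. With the term for replicate number the Klf10 difference was again 0.21, with an SE of 0.064 against 0.102 without the term. Its adjusted p was then 0.123 (limma). The intervals given here are from the fit without that term, so they depend on how replicate number is treated. Klf4 had a log2 difference of 0.096 (95% interval -0.11 to 0.31, adjusted p 0.605, limma), also without overlap between the groups, which held for 18.9% of tested genes. The log2 differences of the others were 0.032 for Klf6 (95% interval -0.15 to 0.21), -0.038 for Klf5 (-0.20 to 0.13) and -0.073 for Sp1 (-0.21 to 0.066). The outermost bound among the 5 genes is the 1.36-fold of Klf10, and the intervals do not show that the pre-miRs act alike.

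Within groups, some libraries held the extremes for several genes at once. Replicate 1 of anti-miR-29a was the highest of its group for Klf6, Klf4, Klf5 and Klf10, while 38.1% of all tested genes had their highest value there. Replicate 3 of pre-miR-29b-1 was the lowest of its group for those 4 genes and the highest for Sp1, where 33.7% of tested genes had their lowest value in that library. Replicate 2 of pre-miR-29a was the lowest of its group for Klf6, Klf5, Klf10 and Sp1, where 34.8% of tested genes had their lowest value. The median deviation of all tested genes from their group mean lay between -0.013 and 0.006 on the log2 scale in every library. The part of these libraries in the spread of the KLF genes was not tested. With anti-miR-29a, the coefficient of variation between libraries was 15.2% for Klf10 and 14.4% for Klf4, against 4.58% and 5.16% from counting error alone. For Klf4 the observed value was 2.71% for pre-miR-29b-1 and 4.64% for pre-miR-29a, below the counting error given above.

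The genes whose pattern over the 9 libraries was most like that of Klf6 were ENSMUSG00000022514 and ENSMUSG00000034165, which the files do not pair with names. Likeness was the root mean square difference of log2(FPKM + 1) after centring each gene on its own mean, among 8617 genes averaging 5 FPKM or more. It was 0.039 for ENSMUSG00000022514, with 19.0 ± 1.06 FPKM with pre-miR-29b-1, 18.9 ± 2.16 FPKM with pre-miR-29a and 27.3 ± 2.11 FPKM with anti-miR-29a (SD, n = 3 each). It was 0.052 for ENSMUSG00000034165, with 77.6 ± 5.46, 76.7 ± 3.09 and 107.8 ± 8.19 FPKM in the same groups. No other member was close to Klf6 by this measure. Klf4, which shares its direction, was at 0.288, and 49.0% of tested genes were closer to Klf6. Klf5 was at 0.257, Sp1 at 0.396 and Klf10 at 0.659, the last with 97.0% of tested genes closer.

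**Figure D5:**
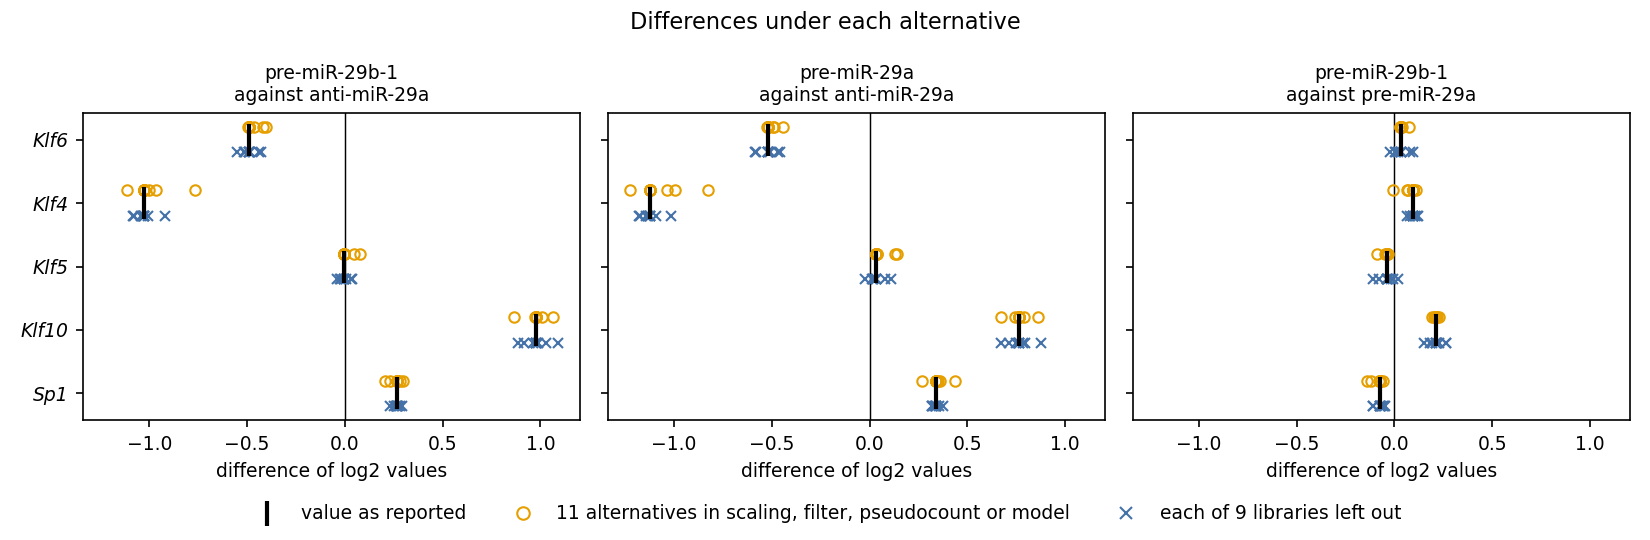
Difference of log2 values for each gene in the 3 comparisons as reported (black bars), under 11 other choices of scaling, filter, pseudocount or model (open circles) and with each of 9 libraries left out (crosses). Klf6 and Klf4 stay below 0 and Klf10 and Sp1 above 0 throughout both comparisons with anti-miR-29a, with Klf4 at -0.76 and -0.83 under a pseudocount of 5, while Klf5 lies on either side of 0.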

How the data were processed

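Per the labels' protocols, RNA from 9 libraries was made into stranded poly(A) libraries and read as single reads. FPKM per gene were deposited by the authors, who used FastQC, TopHat2 2.0.13 and Cuffnorm per the submitters' processing notes. On the scaling and the strand setting used in that processing, nothing is given in the sources used here. Per the file headers, the longest mouse translations of Ensembl release 66 were aligned to CriGri_1.0 to make the models. The exon starts and ends used were deposited by the authors. Of the 15557 identifiers, 0 matched the RefSeq table of CriGri-PICRH-1.0, so other KLF and SP genes and cell type markers were not analysed here. Member names came with the list.

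Members, lists and tests were chosen with earlier results of these data known. All 5 members analysed and the 2 genes nearest to Klf6 are named. Log2(FPKM + 1) was fitted with limma 3.58.1 (R 4.3.3), two-sided, all 9 libraries in 1 fit, with a trend in the moderated variances and Benjamini-Hochberg adjustment over the 9504 genes averaging 1 FPKM or more. The script was tested on simulated data. Implied depth used 1156 genes of at least 3000 coding bases, where 99.1% to 100% of values up to 5 reads lay within 0.2 of a whole number. It is in the unit the authors divided by, and counting errors derived from it cover counting alone. Alternatives changed the pseudocount, filter, scaling, variance model, weights, libraries fitted and replicate block, and left out each library.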

Additional observations from a re-analysis of the deposited data

How the results depend on the processing

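In both comparisons with anti-miR-29a, 4 members were called under each of 11 alternatives and with each of the 9 libraries left out, and no called member changed direction. Over all genes these settings called between 4502 of 9508 (without pre-miR-29b-1 replicate 2) and 6790 of 9504 (array weights) by count. The lowest shares came without the filter, at 5429 of 13376 genes for pre-miR-29b-1 and 5712 of 13376 for pre-miR-29a. The members were chosen on these values, so nothing is read from the persistence of their calls. Without 1 library, the log2 differences with pre-miR-29b-1 ran from -0.55 to -0.43 for Klf6, -1.08 to -0.92 for Klf4, 0.88 to 1.09 for Klf10 and 0.23 to 0.29 for Sp1. With a pseudocount of 5, which shrinks the differences of low genes by construction, Klf4 stood at -0.76 with pre-miR-29b-1 and -0.83 with the other precursor. Between the pre-miRs, 0 members were called, but 1 with array weights (Klf10), where 3627 of 9504 genes were called in place of 1. With 1 library left out 0 members were called, also without pre-miR-29a replicate 1, where 1378 of 9500 genes were. Directions turned only for differences that were not called. With pre-miR-29b-1, the Klf5 difference from anti-miR-29a was 0.079 after quantile normalization and 0.049 with array weights, and -0.042 to 0.039 without 1 library. With pre-miR-29a it was -0.022 to 0.11 without 1 library. Between the pre-miRs, Klf4 stood at -0.0050 after quantile normalization, and without 1 library Klf6 stood at -0.020 to 0.097 and Klf5 at -0.11 to 0.018. The causes were not tested. Quantile normalization moved the median of all tested genes by less than 0.1 but turned the balance of calls, as given above.

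Same-numbered libraries of different groups deviated with correlations across genes of -0.018 to 0.295, with 6 of 9 pairs over 0.1. What same-numbered libraries share was not tested, and these correlations are no reason to treat them as unpaired. The labels number the transfected replicates of each molecule, without tying the numbers to cultures or saying whether equal numbers match across molecules. Replicate number was therefore left out of the main fit and used as a block in an alternative. With the replicate number as a block, the members called were 4 of 5 for pre-miR-29b-1 set against anti-miR-29a (5552 of 9504 genes in all), 4 of 5 for the other precursor against it (5870 genes) and 0 between the pre-miRs, where the block raised the calls over all genes to 184, against 1 without it. Depth limits Klf4 most, and untranslated regions were not counted.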
